A study of Mus musculus with 26 samples.

Results

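The genes described here are 9 transcription factor genes tied to the epithelial-mesenchymal transition (EMT), in which epithelial cells give up cell contacts and take on a fibroblast-like form. They are the EMT inducers Snai1, Snai2, Zeb1, Zeb2, Twist1, Twist2 and Foxc2 and the epithelial factors Grhl2 and Ovol2. They were chosen by name. Where a gene had several single-gene probe sets, the brightest on average stands for it, and the others are given beside it. All 9 of the 9 had such a probe set among 18193 genes, and all 9 were among the 12641 genes tested.

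Transcripts were measured on Affymetrix M430 2.0 arrays in 26 mouse skin cell lines grown in serum, with 1 array per line. The keratinocyte lines C5N and NK (n = 2) are immortalised, and NK came from a p53 null mouse. P6 is a papilloma line. Squamous carcinoma lines flagged as having no spindle pathology were PDV, PDVC57, SN161, B9, B9ras, B9rassmad, E4, MSCP1, MSCP5, MSC12, MSC11B and MSC7A (n = 12), and those with it, a fibroblast-like tumour form, were D3, D3DP, A5, MSN2, H11, CarB and CarC (n = 7). The spindle flag is missing for the carcinoma lines 2945CA and MSCb1, and cell type label and flag conflict for the carcinoma line B9Smad and for another immortalised keratinocyte line. These 4 lines enter no comparison between groups and are given line by line. SN161 came from a tumour in a Spretus/NIH cross and the lines whose names start with MSC from tumours in Spretus/CBA crosses, so probe mismatches with Spretus sequence could lower a signal there, which was not tested. No label gives more than 1 culture of a line, so every line is a single measurement, and p-values measure the spread between lines, some of which share a name family.

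Snail, Zeb and Twist proteins bind E-box sequences in DNA and repress epithelial genes, the best known of them Cdh1, which encodes the adhesion protein E-cadherin. Grhl2 and Ovol2 act in the opposite sense: Grhl2 supports the transcription of junction genes, and Grhl2 and Ovol2 are each known to hold Zeb1 down. Snai2 differs from the other inducers in skin, since normal basal keratinocytes also express it. Melanocytes express Snai2 and Zeb2 as part of their normal state.

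The E-box letters that Snail and Zeb proteins read, CAGGTG or its reverse complement CACCTG, were searched in RefSeq promoter windows of GRCm38.p6, over the 250 bases before each start. Of 25 genes on a list of junction and polarity genes known to answer to these factors, 16 had a window, 10 held a match and 6 held 2 or more. Cdh1 is on this list but had no window, so its promoter was not searched. Over all 27025 genes with a window, 19.4% held a match and 2.39% held 2 or more. The list was made of genes known as targets, so these shares are a description, and a match is not a bound site. Of the 9 members 5 had a window, and of these Snai1 alone held a match. Shown are the windows of Crb3, which had 3 matches, and of Epcam, Ocln and Rab25, which had 2 each and whose transcripts fell in spindle lines, together with that of Snai1. Not shown are the windows of Lsr, with 4 matches the most on the list, and of Cldn7, with 2. Capitals mark the matches.

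Crb3, chr17:57061951-57062200, plus strand: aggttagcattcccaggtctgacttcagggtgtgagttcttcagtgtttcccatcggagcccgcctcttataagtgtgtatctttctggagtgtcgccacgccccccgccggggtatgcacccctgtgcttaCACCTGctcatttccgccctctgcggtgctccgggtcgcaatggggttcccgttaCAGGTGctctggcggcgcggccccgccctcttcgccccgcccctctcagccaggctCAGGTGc
Epcam, chr17:87635729-87635978, plus strand: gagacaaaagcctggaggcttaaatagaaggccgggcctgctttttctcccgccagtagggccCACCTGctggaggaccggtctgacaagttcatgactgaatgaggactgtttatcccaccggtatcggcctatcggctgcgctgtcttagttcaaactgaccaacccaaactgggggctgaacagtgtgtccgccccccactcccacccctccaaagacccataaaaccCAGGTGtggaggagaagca
Ocln, chr13:100552499-100552748, minus strand: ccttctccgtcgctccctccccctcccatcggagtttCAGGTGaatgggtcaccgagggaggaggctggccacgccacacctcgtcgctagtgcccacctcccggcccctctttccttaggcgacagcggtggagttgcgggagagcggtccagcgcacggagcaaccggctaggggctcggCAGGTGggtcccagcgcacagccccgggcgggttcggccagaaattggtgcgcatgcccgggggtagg
Rab25, chr3:88548280-88548529, minus strand: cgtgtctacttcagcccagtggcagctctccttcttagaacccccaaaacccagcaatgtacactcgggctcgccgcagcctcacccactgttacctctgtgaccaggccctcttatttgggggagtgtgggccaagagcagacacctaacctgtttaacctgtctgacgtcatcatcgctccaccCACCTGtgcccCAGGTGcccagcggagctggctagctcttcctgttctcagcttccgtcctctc
Snai1, chr2:167537945-167538194, plus strand: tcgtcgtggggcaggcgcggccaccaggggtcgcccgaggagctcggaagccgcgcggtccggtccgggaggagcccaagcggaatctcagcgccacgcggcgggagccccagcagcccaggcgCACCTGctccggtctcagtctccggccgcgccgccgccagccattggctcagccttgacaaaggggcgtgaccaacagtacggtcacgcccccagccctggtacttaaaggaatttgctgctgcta

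The 26 lines were ordered by Cdh1, and a wide gap divided them. In 15 lines Cdh1 lay between 8.49 (B9Smad) and 11.78 (B9), and in the other 11 between 3.02 (H11) and 3.78 (D3DP), below the array medians of 5.04 to 5.15. Values are log2 RMA values, so a step of 1 is a 2-fold change. The 15 are called Cdh1-positive here and the 11 Cdh1-negative. The Cdh1-negative lines were all 7 spindle lines, 2945CA, and MSC12 (3.25), MSC11B (3.25) and MSC7A (3.54), which are labelled as lacking spindle pathology. The Cdh1-positive lines were 9 non-spindle carcinoma lines, all 3 lines labelled keratinocyte, P6, MSCb1 and B9Smad. The division is itself a measured value, so the levels of the members on its sides are a description with no test. The lines come from different tumours and cultures and are no time course. A low level in an array of bulk RNA cannot tell fewer expressing cells from less RNA per cell.

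**Figure D1:**
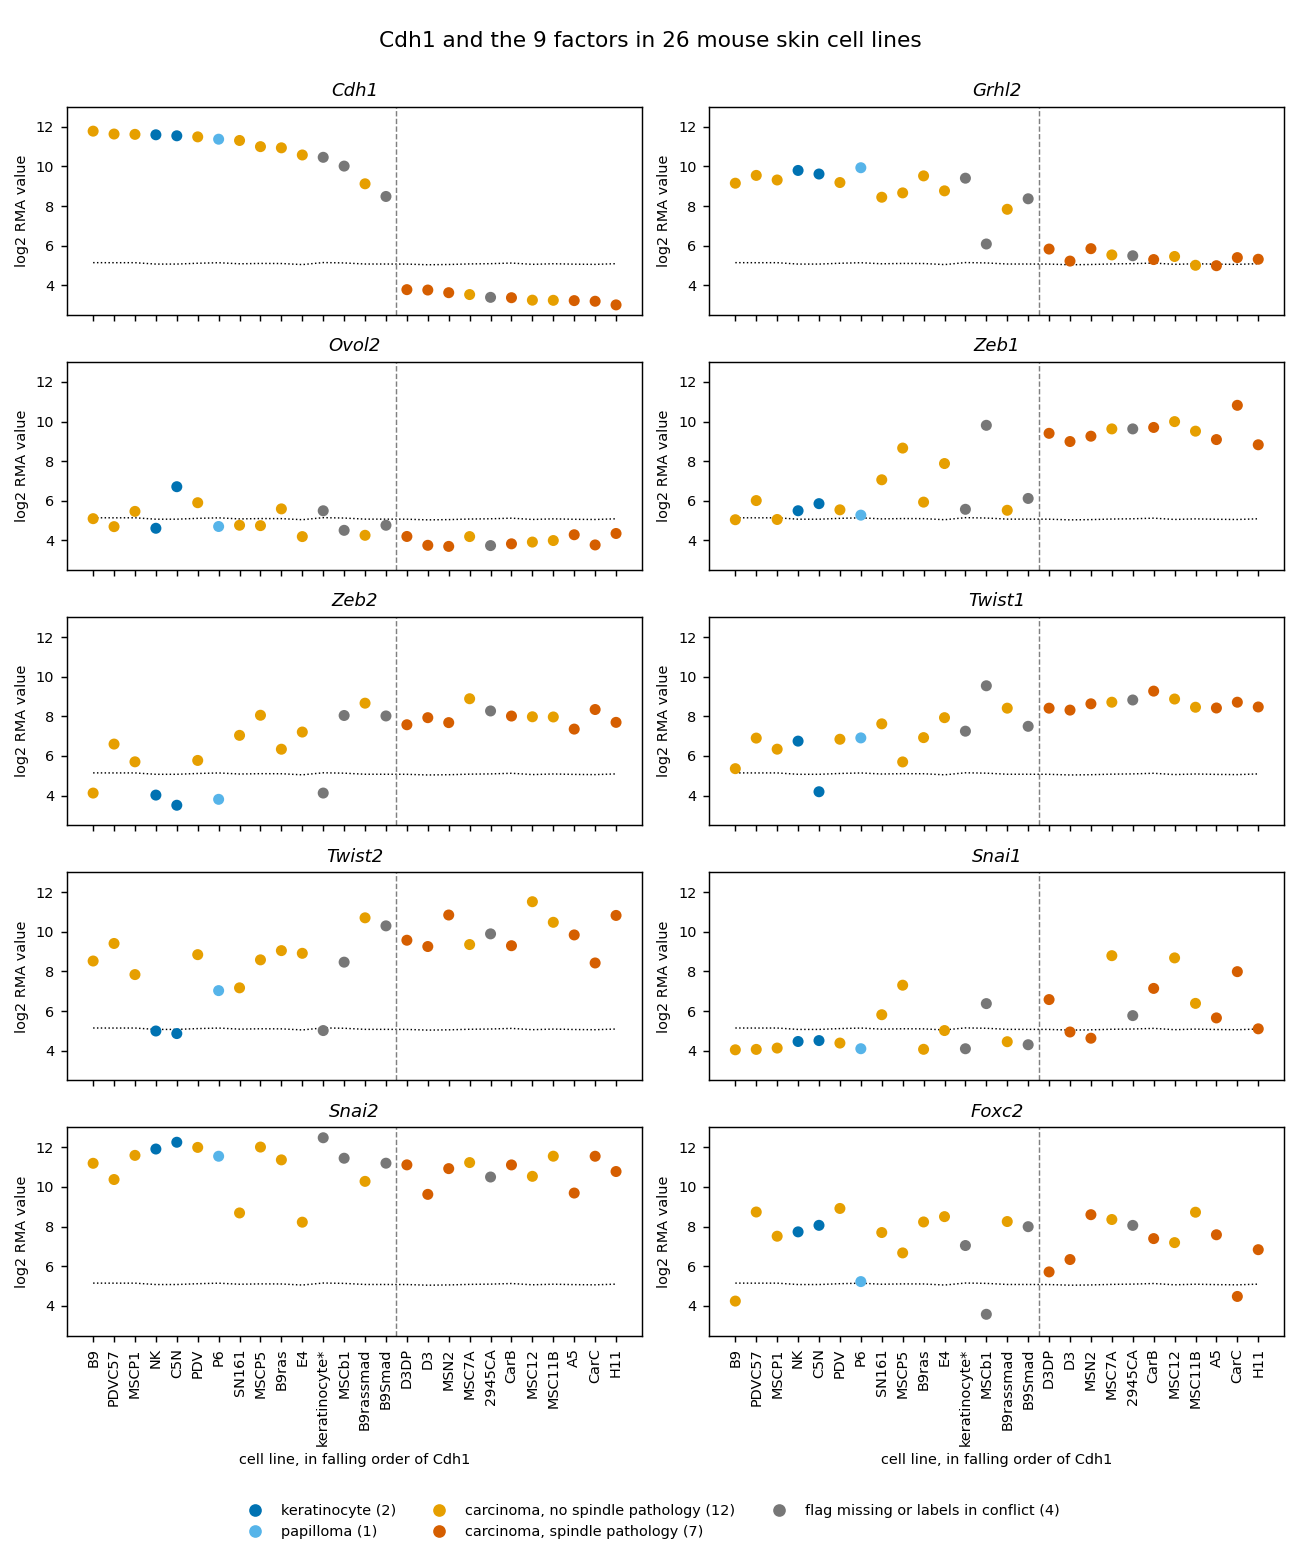
Log2 RMA values (y axis) of Cdh1 and the 9 factors in 26 lines, 1 point per line, placed along the x axis in falling order of Cdh1 and coloured by label, with line numbers per label in the key. The dashed line marks the gap in Cdh1 between 8.49 and 3.78, the dotted line the median of each array, and keratinocyte* the keratinocyte line whose labels conflict; all Grhl2 values right of the gap lie below all those left of it, while Zeb2 and Twist2 are already high in many lines to its left.

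Grhl2, on its brightest probe set, was the 1 member whose values did not overlap across the Cdh1 gap. The Cdh1-negative lines ran from 4.99 (A5) through a median of 5.40 to 5.85 (MSN2), at most 1 log2 unit above the array median. The Cdh1-positive lines ran from 6.09 (MSCb1) through a median of 9.19 to 9.94 (P6). Among the 12641 genes tested, 0.332% were lower in all 11 Cdh1-negative lines than in all 15 others, and 0.0316% were higher. The distance between the sides was only 0.24, because MSCb1 stood at 6.09, near the Cdh1-negative lines, while its Cdh1 was at 10.02. Without MSCb1 the lowest Cdh1-positive line was B9rassmad at 7.84. The remaining Cdh1-positive carcinoma lines held 8.37 (B9Smad), 8.45 (SN161), 8.67 (MSCP5), 8.77 (E4), 9.16 (B9), 9.19 (PDV), 9.32 (MSCP1), 9.53 (B9ras) and 9.55 (PDVC57). All but 2 of the 11 Cdh1-positive carcinoma lines, B9ras and PDVC57, thus lay below the lowest non-carcinoma line, which stood at 9.41. Of the other 3 Grhl2 probe sets, 1452643_at and 1431877_a_at had lower medians in Cdh1-negative lines (5.20 against 5.68, and 6.21 against 6.79), and 1431878_at was below the median of every array. The first 2 of these overlapped across the gap. In 1452643_at the Cdh1-negative lines reached 5.46 and the Cdh1-positive lines began at 5.19. In 1431877_a_at these values were 6.59 and 6.27. With all Grhl2 probe sets averaged, MSCb1 (5.40) fell just inside the Cdh1-negative range, which reached 5.42.

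Ovol2, a zinc finger repressor of mesenchymal genes, was dim, above the array median in 5 of 26 lines. It was highest in C5N (6.71), then in PDV (5.91), B9ras (5.59), the keratinocyte line with conflicting labels (5.50) and MSCP1 (5.47). NK stood at 4.62, so the keratinocyte lines themselves were far apart. The 11 Cdh1-negative lines held 3.70 to 4.35, all below the lowest non-carcinoma line (4.62), and 2 Cdh1-positive lines, E4 (4.20) and B9rassmad (4.26), lay within that range. At this brightness differences are compressed.

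Zeb1, a zinc finger and homeodomain repressor of Cdh1, was the inducer for which the fewest Cdh1-positive lines reached or passed the lowest Cdh1-negative line. The count was 1, close to the 2 of Twist1, where MSCb1 lay above the Cdh1-negative range and B9rassmad within it. All 11 Cdh1-negative lines held 8.83 (H11) to 10.82 (CarC), with a median of 9.52. Of the Cdh1-positive lines MSCb1 alone reached that range, at 9.81, and 0 of the other 14 did. Without MSCb1, a choice made after seeing the values, Zeb1 did not overlap across the gap, as 0.19% of all genes tested then did in the same direction. Of the Cdh1-positive lines, MSCP5 stood at 8.66, E4 at 7.88 and SN161 at 7.06, and the other 11 between 5.05 and 6.12, at most about 1 log2 unit above the array median. So 4 lines, MSCb1, MSCP5, E4 and SN161, had Zeb1 well above the non-carcinoma lines (5.28 to 5.86) while Cdh1 stood at 10.02 to 11.31. The second probe set, 1443005_at, gave medians of 5.11 and 6.31 on the sides of the gap, and 1446127_at gave 4.08 and 4.92, while 1420243_at was below the median of every array.

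Zeb2, the related repressor, had its low values in a few lines only. It lay between 3.51 and 4.13 in the 3 keratinocyte lines and P6, and B9 was at 4.13 too. The other 10 Cdh1-positive carcinoma lines were all higher, at 5.70 (MSCP1), 5.77 (PDV), 6.34 (B9ras), 6.60 (PDVC57), 7.04 (SN161), 7.21 (E4), 8.02 (B9Smad), 8.04 (MSCb1), 8.06 (MSCP5) and 8.66 (B9rassmad). The Cdh1-negative lines held 7.36 (A5) to 8.89 (MSC7A), with a median of 7.97, so B9Smad, MSCb1, MSCP5 and B9rassmad lay in that range although they are Cdh1-positive. The probe sets 1434298_at and 1456389_at were also lower on the Cdh1-positive side, with medians of 3.91 and 4.21 in Cdh1-positive and 6.53 and 5.67 in Cdh1-negative lines. Probe set 1454200_at was below the median of every array, and 1458941_at moved little, from a median of 5.23 to 5.39.

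**Figure D2:**
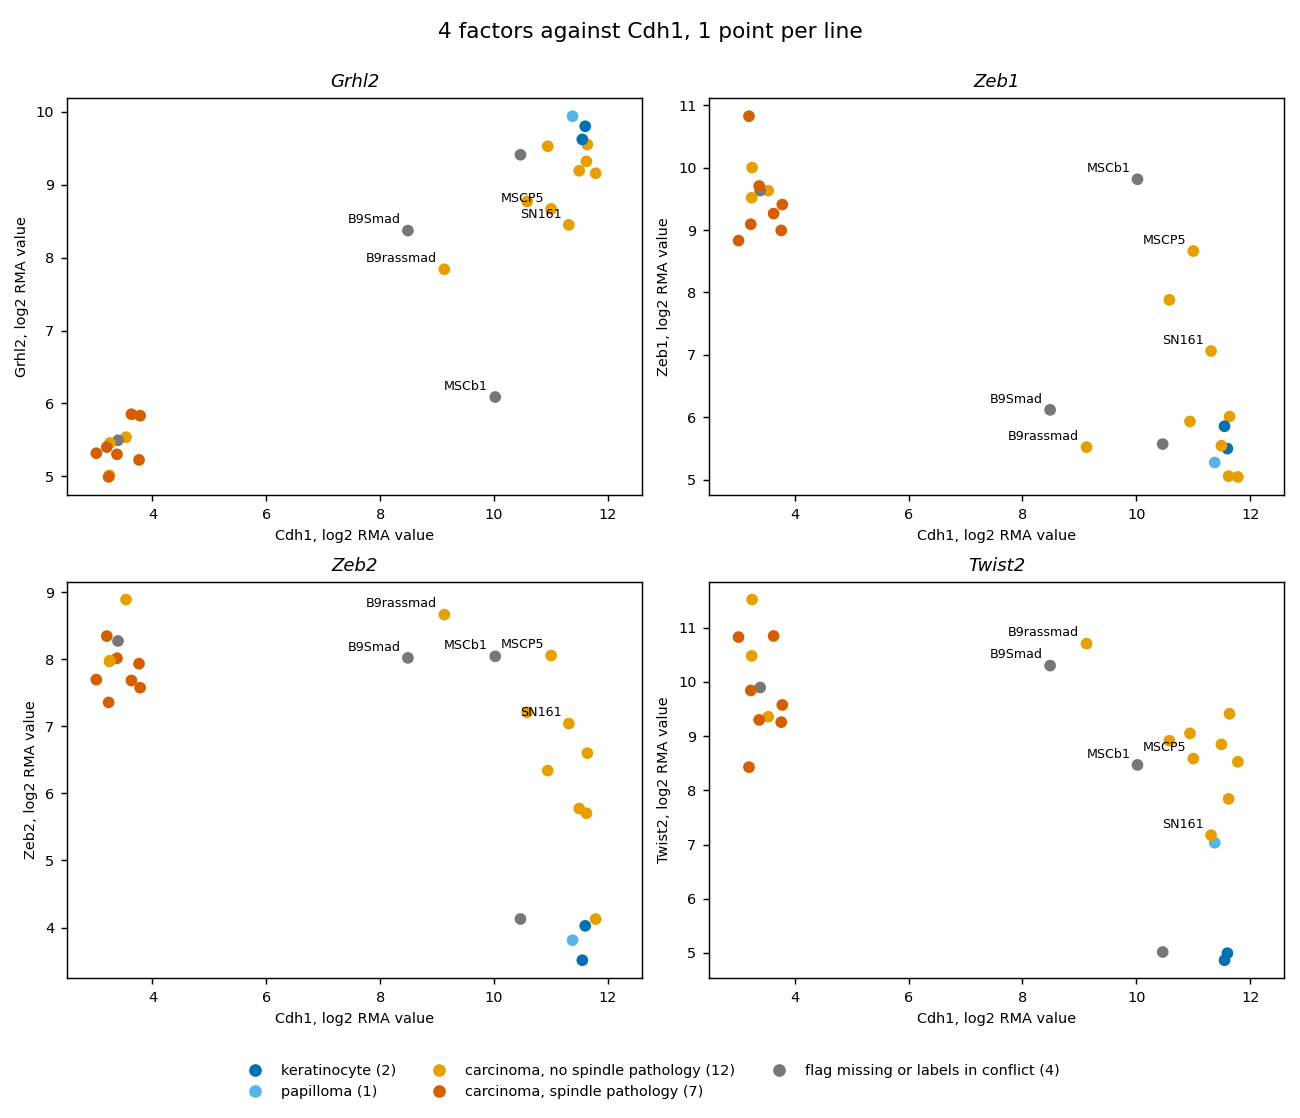
Grhl2, Zeb1, Zeb2 and Twist2 (y axes) against Cdh1 (x axes), all log2 RMA values, 1 point per line, coloured by label. MSCb1 combines Cdh1 of 10.02 with Zeb1 of 9.81 and Grhl2 of 6.09, and B9Smad and B9rassmad combine high Zeb2 and Twist2 with Zeb1 of at most 6.12.

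Twist2, a basic helix-loop-helix factor, separated carcinoma lines from keratinocytes and not Cdh1-negative from Cdh1-positive lines. The 3 keratinocyte lines stood at 4.87, 4.99 and 5.02, below the medians of their arrays, and P6 at 7.03. Among the Cdh1-positive carcinoma lines all 11 were above P6, from 7.17 (SN161) to 10.71 (B9rassmad) with a median of 8.85, and 0.38% of genes tested had all 11 above all 4 non-carcinoma lines. The Cdh1-negative lines held 8.43 (CarC) to 11.52 (MSC12) with a median of 9.84, and 9 of the 11 Cdh1-positive carcinoma lines lay within that range.

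Twist1 followed Cdh1 more closely than its relative. The Cdh1-negative lines lay in a narrow band from 8.31 (D3) to 9.27 (CarB), and only MSCb1 (9.54) and B9rassmad (8.41) among Cdh1-positive lines reached that band or passed it. E4 (7.93), SN161 (7.62) and B9Smad (7.50) came next. The non-carcinoma lines ran from 4.19 (C5N) to 7.25, and 5 of 11 Cdh1-positive carcinoma lines exceeded them. B9 (5.36) and MSCP5 (5.70) were low, so MSCP5 combined Zeb1 of 8.66 and Zeb2 of 8.06 with little Twist1.

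Snai1, the zinc finger gene whose product binds the Cdh1 E-boxes directly, was uneven among the Cdh1-negative lines. It ran from 4.63 (MSN2), 4.94 (D3) and 5.10 (H11), close to the array median, to 7.99 (CarC), 8.68 (MSC12) and 8.80 (MSC7A). Of the Cdh1-positive lines MSCP5 (7.31), MSCb1 (6.38), SN161 (5.82) and E4 (5.02) lay in that range, and the other 11 held 4.05 to 4.51. These are the same 4 lines that had raised Zeb1. All 11 Cdh1-negative lines were above the 4 non-carcinoma lines (4.10 to 4.51), MSN2 by little.

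Snai2 was high in the keratinocyte lines, at 11.91 in NK, 12.26 in C5N and 12.48 in the line with conflicting labels, and MSCP5 (12.01) and PDV were about as high. The Cdh1-negative lines held 9.62 (D3) to 11.55 (MSC11B), with a median of 10.92, and the lowest values of all were in the Cdh1-positive lines E4 (8.22) and SN161 (8.69). So Snai2 was above the array median in all 26 lines and was not higher where Cdh1 was low. The second probe set, 1418673_at, ran from 6.04 to 10.03 with medians of 9.03 in Cdh1-positive and 8.54 in Cdh1-negative lines. The brighter one, 1447643_x_at, is of a type that can cross-hybridise.

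Foxc2, a forkhead factor that acts late in EMT, showed no order along Cdh1. It ran from 3.57 (MSCb1) to 8.91 (PDV) in Cdh1-positive lines and from 4.47 (CarC) to 8.72 (MSC11B) in Cdh1-negative lines, with medians of 7.73 and 7.39. It was below the array median in 3 lines, MSCb1, B9 (4.24) and CarC, of which 1 is Cdh1-negative. Of the Cdh1-positive lines 13 of 15 lay above the lowest Cdh1-negative line.

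The steps from the 4 non-carcinoma lines to the 11 Cdh1-positive carcinoma lines and on to the 11 Cdh1-negative ones differed in size between factors. The median of Twist2 differed by 3.84 in the first step and 1.00 in the second, and that of Zeb2 by 3.12 and 0.93. For Zeb1 the steps were 0.48 and 3.50, for Snai1 0.10 and 2.00, and for Twist1 0.10 and 1.71. Both Snai1 medians of the first step (4.28 and 4.39) lay below the array medians, where differences are compressed. The non-carcinoma medians of Zeb2 (3.92) and Twist2 (5.01) lay below them too. Grhl2 differed by -0.94 and then by -3.37. Of the 11 Cdh1-positive carcinoma lines, 11 were above every non-carcinoma line in Twist2 and 10 in Zeb2, against 7 in Zeb1, 5 in Twist1 and 4 in Snai1. In Zeb1, 1 of the 11 reached or passed the lowest Cdh1-negative line, and in Twist1 2 did. The number was 4 in Snai1, 4 in Zeb2 and 9 in Twist2. The order holds between lines and was not followed within any culture.

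The 4 lines named B9 show such levels within 1 name family, with 1 array each and no label on how they were made. Cdh1 was at 11.78 in B9, 10.94 in B9ras, 9.13 in B9rassmad and 8.49 in B9Smad. Zeb2 was at 4.13, 6.34, 8.66 and 8.02 in the same order, and Twist1 at 5.36, 6.93, 8.41 and 7.50. Twist2 was at 8.53 and 9.05 in B9 and B9ras, and at 10.71 and 10.30 in B9rassmad and B9Smad. Zeb1 (5.05 to 6.12) and Snai1 (4.05 to 4.45) were low in all 4, and Grhl2 was lowest in B9rassmad at 7.84. Foxc2 was at 4.24 in B9 and at 7.99 to 8.25 in the other 3. B9rassmad and B9Smad had the lowest Cdh1 of the 15 Cdh1-positive lines, and had high Zeb2 and Twist2 without high Zeb1 or Snai1.

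**Figure D3:**
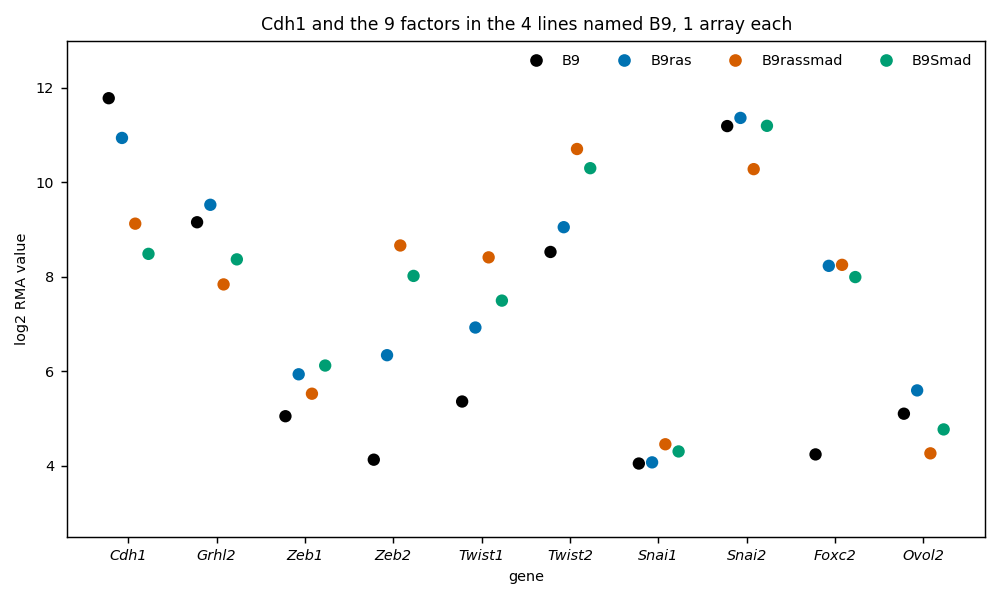
Log2 RMA values (y axis) of Cdh1 and the 9 factors (x axis) in the 4 lines named B9, 1 point per line and no replicate. Zeb2 stands at 4.13 in B9 and at 8.66 and 8.02 in B9rassmad and B9Smad, while Zeb1 stays at or below 6.12 in all 4.

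The labelled groups were then compared with limma over all 12641 genes, in 1 model of 21 lines, and a gene was called at a Benjamini-Hochberg adjusted p under 0.05. Against the keratinocyte lines, Twist2 rose in non-spindle carcinoma lines from 4.93 ± 0.09 (SD, n = 2) to 9.20 ± 1.22 (SD, n = 12). The log2 difference was 4.27 (SE 0.79), with a limma adjusted p of 0.00494. Zeb2 rose from 3.77 ± 0.36 (SD, n = 2) to 7.03 ± 1.40 (SD, n = 12), by 3.26 on the log2 scale (SE 0.81), with a limma adjusted p of 0.0382. The keratinocyte values of both genes lie below the array medians and may not be above background, so no fold is given. With all 5 Zeb2 probe sets averaged the difference was 1.59 and was not called (limma adjusted p = 0.111). These were 2 of 9 members called, both higher, where 0.886% of all genes were called higher. Both were also higher in every non-spindle line than in either keratinocyte line, as were 2.69% of genes tested. For Zeb2 this rested on B9 at 4.1275 against NK at 4.026, both below the array median. Grhl2 was lower in every non-spindle line (9.55 at most) than in either keratinocyte line (9.62 at least), as were 2.97% of genes. Its difference of -1.67 (SE 0.98) did not pass, with a limma adjusted p of 0.562. With the keratinocyte line of conflicting labels included, neither Zeb2 nor Grhl2 would separate. That line stood at 4.1284 in Zeb2, above B9, and at 9.41 in Grhl2, below B9ras (9.53) and PDVC57 (9.55). With only 2 keratinocyte lines, leaving out either ended both calls while the differences stayed similar in size. Without C5N limma gave 4.21 for Twist2 (adjusted p = 0.0751) and 3.003 for Zeb2 (adjusted p = 0.311). Without NK it gave 4.34 (adjusted p = 0.0532) and 3.52 (adjusted p = 0.183), the lone keratinocyte line being assumed to vary like the other groups. The Zeb2 call was also lost without SN161, MSC12, MSC11B, E4, D3DP, MSN2 or H11.

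Spindle lines were set against the same keratinocyte lines, so this comparison shares its controls with the one before and the 2 sets of values only stand side by side. Twist2 rose to 9.73 ± 0.88 (SD, n = 7), by 4.80 (SE 0.83), with a limma adjusted p of 0.00219. Zeb2 rose to 7.80 ± 0.32 (SD, n = 7), by 4.03 (SE 0.85), with a limma adjusted p of 0.00886. Twist1 rose from 5.47 ± 1.81 (SD, n = 2) to 8.61 ± 0.32 (SD, n = 7), by 3.13 (SE 0.79), with a limma adjusted p of 0.0254. The keratinocyte lines stood apart in Twist1, at 4.19 and 6.75, and the difference was 1.86 without C5N and 4.41 without NK. Grhl2 fell from 9.71 ± 0.13 (SD, n = 2) to 5.42 ± 0.32 (SD, n = 7), by 4.29 on the log2 scale (SE 1.03), with a limma adjusted p of 0.0196. With all probe sets averaged the differences were 2.16 for Zeb2 and -1.64 for Grhl2, both still called by limma (adjusted p = 0.0186 and 0.0183), and 1.53 for Zeb1, which was not (adjusted p = 0.061). That made 3 of 9 members called higher and 1 lower, against 2.4% and 2.95% of all genes. Zeb1 differed by 3.77 (SE 1.17), from 5.68 ± 0.25 (SD, n = 2) to 9.45 ± 0.67 (SD, n = 7), but with a limma adjusted p of 0.0646 it was not called, and Ovol2 at -1.68 (SE 0.50) had 0.0538. The Ovol2 difference was -0.63 without C5N and -2.73 without NK. The pooled spread of this model includes the non-spindle lines, in which Zeb1 had an SD of 1.89 (n = 12). In a fit of the spindle and keratinocyte lines alone, limma called Zeb1 as well (adjusted p = 0.0011). Values did not overlap in Snai1, Zeb1, Zeb2, Twist1 and Twist2, all higher, as in 12.9% of genes tested, nor in Snai2, Grhl2 and Ovol2, all lower, as in 10.1%. Without C5N limma called only Twist2 of the 9 (adjusted p = 0.0326), and without NK it called Twist2 (0.024), Twist1 (0.0175) and Ovol2 (0.0114). The limma adjusted p without C5N and without NK was 0.105 and 0.0618 for Zeb2 and 0.122 and 0.159 for Grhl2, and that of Twist1 without C5N was 0.382.

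Between spindle and non-spindle carcinoma lines 0 of 9 members were called by limma, where 0.0633% of all genes were, and 4 of the 9 had an unadjusted p under 0.05, as did 20.7% of all genes. These were Zeb1 at 2.29 (SE 0.69, adjusted p = 0.109), Twist1 at 1.27 (SE 0.47, adjusted p = 0.15), Grhl2 at -2.62 (SE 0.61, adjusted p = 0.0632) and Ovol2 at -0.75 (SE 0.30, adjusted p = 0.169), all from limma. With all probe sets of a gene averaged, Zeb1 differed by 0.90 and Grhl2 by -0.85, with limma adjusted p of 0.11 and 0.0884. Zeb2 differed by 0.77 (95% interval -0.28 to 1.82), Twist2 by 0.52 (-0.50 to 1.55), Snai1 by 0.41 (-1.08 to 1.90), Snai2 by -0.07 (-1.06 to 0.92) and Foxc2 by -1.05 (-2.26 to 0.16). The spindle label did not match the Cdh1 order, since MSC12, MSC11B and MSC7A, which lack the spindle flag, held Grhl2 of 5.46, 5.01 and 5.54 and Zeb1 of 9.52 or more. Leaving out MSC11B made Grhl2 and Zeb1 called by limma (adjusted p = 0.00988 and 0.0439), and leaving out MSC12 or MSC7A made Grhl2 called. Without all 3, limma called Zeb1 (3.14), Twist1 (1.71), Grhl2 (-3.52) and Ovol2 (-0.98). The 3 lines were picked with earlier results on their epithelial transcripts known, and Cdh1, Grhl2 and Epcam are low in all 3, so the choice of lines sets these calls, which test nothing.

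**Figure D4:**
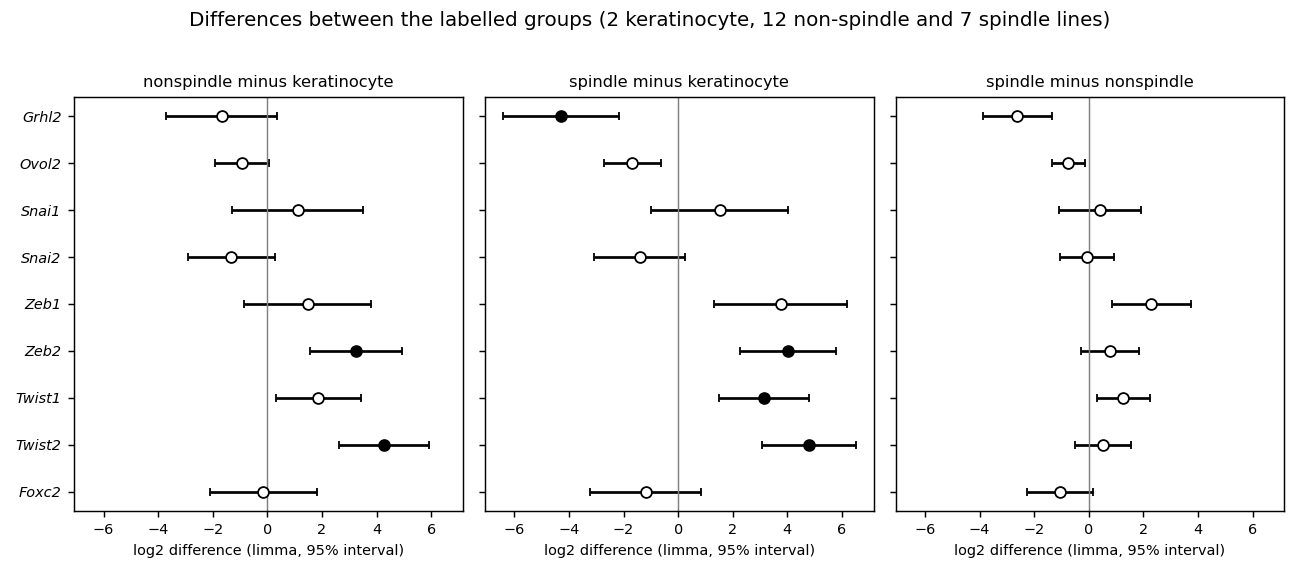
Log2 differences of the 9 factors (rows) between labelled groups with limma's 95% intervals (x axis), for 12 non-spindle against 2 keratinocyte lines, 7 spindle against 2 keratinocyte lines, and 7 spindle against 12 non-spindle lines. Filled points passed an adjusted p of 0.05 over 12641 genes: Zeb2 and Twist2 in the left panel, Grhl2, Zeb2, Twist1 and Twist2 in the middle, and 0 in the right.

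Genes around the factors were counted on 7 lists. Of 23 tested junction and polarity genes, 10 fell and 0 rose in spindle against keratinocyte lines, where 2.95% of all genes were called lower and 2.4% higher. The median log2 difference of the list was -3.88 against 0.04 over all genes. The 3 largest were Cdh1 itself (-8.15), the adhesion gene Epcam (-8.13) and the epithelial splicing regulator gene Esrp1 (-6.83). Against non-spindle lines 0 of 23 were called (median -2.12) with 16 at an unadjusted p under 0.05, a mark that 20.7% of all genes passed. In non-spindle against keratinocyte lines 1 fell, Marveld3 (-3.44), where 1.13% of all genes were called lower. Of the 4 junction genes whose windows are shown above, Epcam alone did not overlap across the Cdh1 gap. It held 7.34 to 13.12 in Cdh1-positive and 3.86 to 4.62 in Cdh1-negative lines. Lsr, whose window is not shown, did not overlap either, at 6.93 to 12.07 and 5.98 to 6.85. Nor did Spint1, whose window held 0 matches, at 6.19 to 10.86 and 4.16 to 5.56. Esrp1, Esrp2 and St14 on the same list had no window and did not overlap. Of all genes tested 0.332% were lower in every Cdh1-negative line than in any other line. Ocln, an occludin gene of tight junctions, ran from 3.41 to 9.80 and from 3.45 to 5.06, its lowest value being in the keratinocyte line with conflicting labels. Rab25, a vesicle traffic gene, ran from 5.75 (B9rassmad) to 10.50 and from 5.28 to 5.86. Crb3, a polarity gene, differed less, with medians of 7.44 and 7.06 and overlapping ranges.

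Among 11 other epithelial transcription factor genes tested, 5 fell and 0 rose in spindle against keratinocyte lines, against the same 2.95% and 2.4% of all genes, with a median of -3.01. The 3 largest were Ehf (-5.29) and the Grhl2 relatives Grhl3 (-3.95) and Grhl1 (-3.54). In non-spindle against keratinocyte lines Grhl3 alone fell (-2.90), and against non-spindle lines 0 were called, with 8 at an unadjusted p under 0.05. Among 16 other EMT-linked factor genes 1 was called higher against keratinocytes, the chromatin protein gene Hmga2. It differed by 4.93 in non-spindle and 4.50 in spindle lines, where 0.886% and 2.4% of all genes were called higher. The median of that list was -0.01 and -0.12, near the 0.02 and 0.04 of all genes.

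Of 15 corepressor and partner genes, among them Ctbp1, Hdac1 and Ezh2, 0 were called by limma in any of the 3 comparisons. In them 1, 2 and 1 had an unadjusted p under 0.05, for spindle against non-spindle, non-spindle against keratinocyte and spindle against keratinocyte lines, where 20.7%, 12% and 20.7% of all genes did. Of 10 genes for enzymes that act on the stability of the factors, Fbxo45, a ubiquitin ligase gene, fell in non-spindle (-1.06) and spindle lines (-1.01) against keratinocytes, and Fbxw7 fell in spindle lines (-0.92). Of all genes 1.13% and 2.95% fell in these comparisons. Of 17 mesenchymal genes that the factors are known to raise, 0 were called higher and 1 lower in spindle against keratinocyte lines. Of all genes 2.4% and 2.95% were. The gene called was Tnc (-6.33), which encodes the matrix protein tenascin C, while the median of the list was 1.79. Of the 17, 5 had an unadjusted p under 0.05, a mark that 20.7% of all genes passed. The pooled spread includes the non-spindle lines, so a gene not called may still differ. Of 16 inducer genes, Axl, a receptor kinase gene, and Tgfb1 rose in non-spindle lines (2.13 and 1.34), and Tgfb3 (3.12), Axl (2.05) and Smad3 (1.36) rose in spindle lines, where the Notch target Hes1 fell (-2.11). The shares of all genes called higher were 0.886% and 2.4%. Between spindle and non-spindle lines limma called 0 genes of these 5 lists, from other EMT-linked factors to inducers, with 5, 1, 1, 4 and 5 at an unadjusted p under 0.05.

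For each factor the 3 genes most alike across the 26 lines were found by Spearman's rho, given as a description, since the lines share families and fall into 2 sets by Cdh1. For Grhl2 these were Esrp2 (0.93), Gm16136 (0.92) and Jup (0.92), and for Ovol2 Cdc42bpg (0.90), Patj (0.87) and Itprid2 (0.87). Esrp2 is an epithelial splicing regulator gene, Jup encodes the junction protein plakoglobin and Patj a polarity protein. For Zeb1 they were Tcf12 (0.92), which encodes a dimer partner of Twist proteins, Lgals8 (0.91) and Gypc (0.90). For Zeb2 they were Plxnd1 (0.89), Ccn5 (0.85) and Vash2 (0.85), for Twist1 Usp11 (0.92), Pdp1 (0.88) and Prkacb (0.88), and for Twist2 Qk (0.85), Cyb5b (0.84) and Mrps6 (0.84). For Snai1 they were Trim46 (0.91), the collagen gene Col5a1 (0.91) and Gpr176 (0.91), for Snai2 Zfp46 (0.82), Fgfr2 (0.81) and Bcl11b (0.81), and for Foxc2 Rad23b (0.70), Zfp37 (0.67) and Polh (0.67). Between members, rho was 0.86 for Zeb1 with Twist1, 0.84 for Zeb1 with Snai1, 0.72 for Zeb1 with Zeb2, and 0.46 for Zeb1 with Twist2. It was -0.78 for Grhl2 with Zeb1, -0.77 with Twist1, -0.69 with Zeb2, -0.68 with Snai1 and -0.64 with Twist2. For Grhl2 with Ovol2 it was 0.73 and with Snai2 0.45. For Ovol2 it was -0.77 with Twist1 and -0.73 with Zeb1.

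Markers of the labelled cell type and of others were read in the same lines. The mean of 7 measured keratinocyte markers lay between 6.58 and 12.36 in Cdh1-positive and between 5.20 and 5.87 in Cdh1-negative lines. In the latter Col17a1 was below every array median, while Itga6 held 8.36 to 11.51. Col17a1 was also low in the Cdh1-positive lines SN161 (3.60), E4 (3.69) and B9rassmad (3.75). Krt5 and Trp63 were low in E4 (4.79 and 4.19) and SN161 (5.60 and 4.36). The mean of 8 fibroblast markers ran from 4.10 to 7.37 in Cdh1-positive and from 5.16 to 9.76 in Cdh1-negative lines. By group it was 4.27 to 4.51 in keratinocyte, 4.10 to 9.37 in non-spindle and 5.16 to 9.76 in spindle lines, with 2 to 3, 0 to 6 and 3 to 6 of the 8 above the array median and Lum below it in all 26 lines. The highest mean among Cdh1-positive lines was that of MSCP5 (7.37), where Zeb1 was 8.66 and Snai1 7.31, but Twist1 only 5.70. The part of the fibroblast markers in the results on the factors was not tested. Of 8 melanocyte markers 1 to 4 were above the array median in Cdh1-positive and 3 in every Cdh1-negative line, with Dct, Tyr, Tyrp1 and Kit below it on all arrays. Mitf, the melanocyte regulator on that list, had medians of 5.98 in Cdh1-positive and 7.40 in Cdh1-negative lines and was highest in C5N (9.42), and Sox10 lay between 5.74 and 6.27 in all 26 lines. Of 8 leukocyte markers 2 to 4 were above the median in Cdh1-positive and 3 to 4 in Cdh1-negative lines. Ptprc, Itgam, Tyrobp and Fcer1g were below it on all arrays, while Cd14 reached 11.34 in MSCb1 and Cd68 9.995 in SN161. Of 6 endothelial markers 0 to 2 were above the median, with Tie1 and Emcn below it on all arrays. The part of these markers in the results was not tested either.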

How the data were processed

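The deposited table holds log2 values that the authors made with RMA, per the submitters' processing notes. As usually run, this method corrects background, quantile-normalises and summarises probes to probe sets. Its version is not given in the sources used here. Quantile normalisation hides changes in total RNA, and differences near the array median are compressed. Of 45037 probe sets 34945 had 1 gene symbol in a table of probe sets and genes, 932 had several and 9160 were unnamed here. Symbols were updated for 34741 through the RefSeq annotation of GRCm38.p6.

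The brightest single-gene probe set on average stood for each of 18193 genes, and 12641 genes above the array median on 2 or more arrays were tested with limma 3.58.1 (R 4.3.3, lmFit and eBayes) in 1 model of 21 lines, with adjusted p-values over all genes tested. The fit was tested on simulated data. The name of 1 keratinocyte line is not reported here. Precision is limited by the number of arrays. The members, lists and naming rule (members, called list genes with the 3 largest differences, 3 genes most alike) were chosen with earlier results of these data known. Alternatives were the mean of all probe sets, no filter, fits of 2 groups, a trend with robust spread, a family block, placing conflicting lines by label, and leaving out lines.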

Additional observations from a re-analysis of the deposited data

Results flagged for a closer look

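Twist1 in the spindle line CarB stood at 9.27, apart from the other 6 spindle lines, which held 8.31 to 8.71. It was the 1 value picked out among the 9 factors in the 7 spindle lines by its gap to the nearest line, and such a rule picks out about 1 in 20 groups by chance.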

How the results depend on the processing

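In spindle against non-spindle lines 0 members were called under 6 of 7 alternatives, and 4 were without MSC12, MSC11B and MSC7A. In non-spindle against keratinocyte lines the 2 calls became 1, Twist2, with all probe sets averaged, with the 2 groups fitted alone, with a random block for name families and without those 3 lines. For Zeb2, the limma adjusted p was then 0.111, 0.154, 0.0602 and 0.0627. In spindle against keratinocyte lines 4 to 6 members were called under the 7 alternatives, and Twist1 was lost (limma adjusted p = 0.0557) with conflicting lines placed by label. Leaving out 1 line gave 0 to 2 members in spindle against non-spindle lines, 0 to 2 in non-spindle against keratinocyte and 1 to 6 in spindle against keratinocyte lines, the lowest without C5N. Small differences changed sign: Snai2 between spindle and non-spindle lines was 0.019 with the family block, 0.049 without the 3 lines and -0.30 to 0.11 without 1 line. Against keratinocytes, non-spindle differences without 1 line ran from -0.31 to 0.17 for Foxc2. For Ovol2, at -0.93 with all lines, they ran from -1.98 without NK to 0.12 without C5N. These 2 keratinocyte lines stood at 4.62 and 6.71 in Ovol2. The cause of the sign changes was not tested. Over all genes, calls between spindle and non-spindle lines numbered 8, but 5 with probe sets averaged, 3 with no filter, 23 with the family block, 0 with lines placed by label, 1954 without the 3 lines and 2 to 471 without 1 line. The 255 calls of non-spindle against keratinocyte lines became 111, and the 676 of spindle against keratinocyte lines 1213, with 2 groups fitted alone, and 147 and 258 without C5N. Without MSCb1, a choice made after seeing the data, 0 Cdh1-positive lines lay in the Zeb1 range of the Cdh1-negative ones. Cdh1 has 1 probe set here, so a second was not tried. No paired analysis was possible because the labels give the lines no shared replicate numbers.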
